A study of Homo sapiens with 6 samples.

Results

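The semaphorins, their plexin and neuropilin receptors and the related plexin domain containing genes were examined in the H69 line, immortalised human cholangiocytes, which are the epithelium of the bile ducts. Members were taken by name and biotype: protein-coding rows on the main assembly named as semaphorins of classes 3 to 7, as plexins of families A to D, or as NRP1, NRP2, PLXDC1 or PLXDC2, which gave 33 of the 64253 genes in the table. The TGF-beta group was H69 at passages 30 to 32 given the recombinant human cytokine TGF-beta for 16 h at 10 ng/ml, and the vehicle group was the same line at the same passages given vehicle, with 3 RNA sequencing libraries in each. The question was how TGF-beta, whose receptors act on genes through SMAD proteins, alters the RNA of this line. Both groups come from 1 cell line, and nothing in the labels says whether the libraries came from separate cultures, so p-values measure only the spread between these libraries, which may be technical.

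Semaphorins are secreted, membrane-spanning or lipid-anchored ligands that share a sema domain, and they steer axons, endothelial cells and epithelial cells by acting on the cytoskeleton and on adhesion. Plexins are their transmembrane receptors and carry a cytosolic domain that switches off small GTPases of the Ras and Rap kind. Neuropilins have short cytosolic tails and act as co-receptors: most secreted class 3 semaphorins bind a neuropilin that is held in a complex with an A plexin or with PLXND1.

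Of the 33 members, 29 had enough reads to be tested, and 18 of these were called, 10 higher and 8 lower under TGF-beta. A gene was called at a Benjamini-Hochberg adjusted p under 0.05 in the edgeR quasi-likelihood test over all 20992 genes tested. That call was also made for 40.1% of all tested genes, 19.7% higher and 20.4% lower, so a call alone does not set a member apart. Changes of at least 2-fold were called for 8 members, 5 higher and 3 lower, against 8.37% of all tested genes (4.78% higher and 3.59% lower). The median size of the log2 fold change was 0.50 over the tested members and 0.22 over all tested genes, while the signed medians were 0.12 and -0.01. The largest rises were those of PLXDC2 (10.8-fold), NRP2 (5.71-fold), SEMA7A (4.27-fold) and PLXND1 (3.62-fold), and the largest falls those of SEMA3A (12.9-fold lower), SEMA6D (3.17-fold lower) and SEMA6B (2.70-fold lower). In a bulk sample, fewer cells of a type and less RNA per cell cannot be told apart.

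Library totals were 37205862 to 47314515 reads under TGF-beta and 39971568 to 54160521 reads under vehicle, and 1 CPM (the depth-scaled count unit, with TMM scaling) stood for 35.7 to 56.2 reads. The known TGF-beta targets SMAD7 and PMEPA1 were called higher in the TGF-beta libraries, with log2 fold changes of 2.48 and 2.87. Vehicle library 1 stood apart from the other vehicle libraries on the second principal component of log2 CPM, which held 11.6% of the variance. Without it, 11 members were called higher and 9 lower. With library totals in place of TMM scaling, the median log2 fold change of all genes was -0.14, 2698 genes were called higher and 7282 lower (4145 higher and 4278 lower with TMM), and 9 members were called in each direction. Among the cholangiocyte markers checked, KRT7, KRT19, EPCAM and SOX9 were above 1 CPM on average, whereas CFTR had no reads. Some listed markers of other cells were at or near 0 in every library, including COL3A1, LUM, CDH5, ELAVL4, PTPRC, CD3E and ALB. Others from the same lists were above 1 CPM on average. Summed levels of the marker lists of other cells, 6 genes each, are given in turn. The fibroblast list (3 of 6 above 1 CPM, carried mostly by PDGFRB) summed to 138 to 148 CPM under TGF-beta against 70.2 to 83.4 CPM under vehicle, and the endothelial list (2 of 6, mostly KDR) to 11.3 to 13.1 CPM under TGF-beta against 20.9 to 25.3 CPM under vehicle. The leukocyte list (2 of 6, CD68 and CD14) summed to 11.4 to 13.1 CPM under TGF-beta against 15.4 to 15.7 CPM under vehicle, the hepatocyte list (2 of 6, mostly SERPINA1) to 73.0 to 76.1 CPM under TGF-beta against 62.4 to 64.3 CPM under vehicle, and the neuronal list (4 of 6, mostly TUBB3 and MAP2) to 157 to 171 CPM under TGF-beta against 110.1 to 213 CPM under vehicle, where the groups overlapped. The cholangiocyte list summed to 3124 to 3463 CPM under TGF-beta and 1746 to 2198 CPM under vehicle. The higher sums of the cholangiocyte and fibroblast lists were each carried by 1 gene: KRT7 was called higher while EPCAM and SOX9 were called lower, and PDGFRB was called higher while PDGFRA and RGS5 were called lower. The part of these genes in the members' results was not tested.

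**Figure D1:**
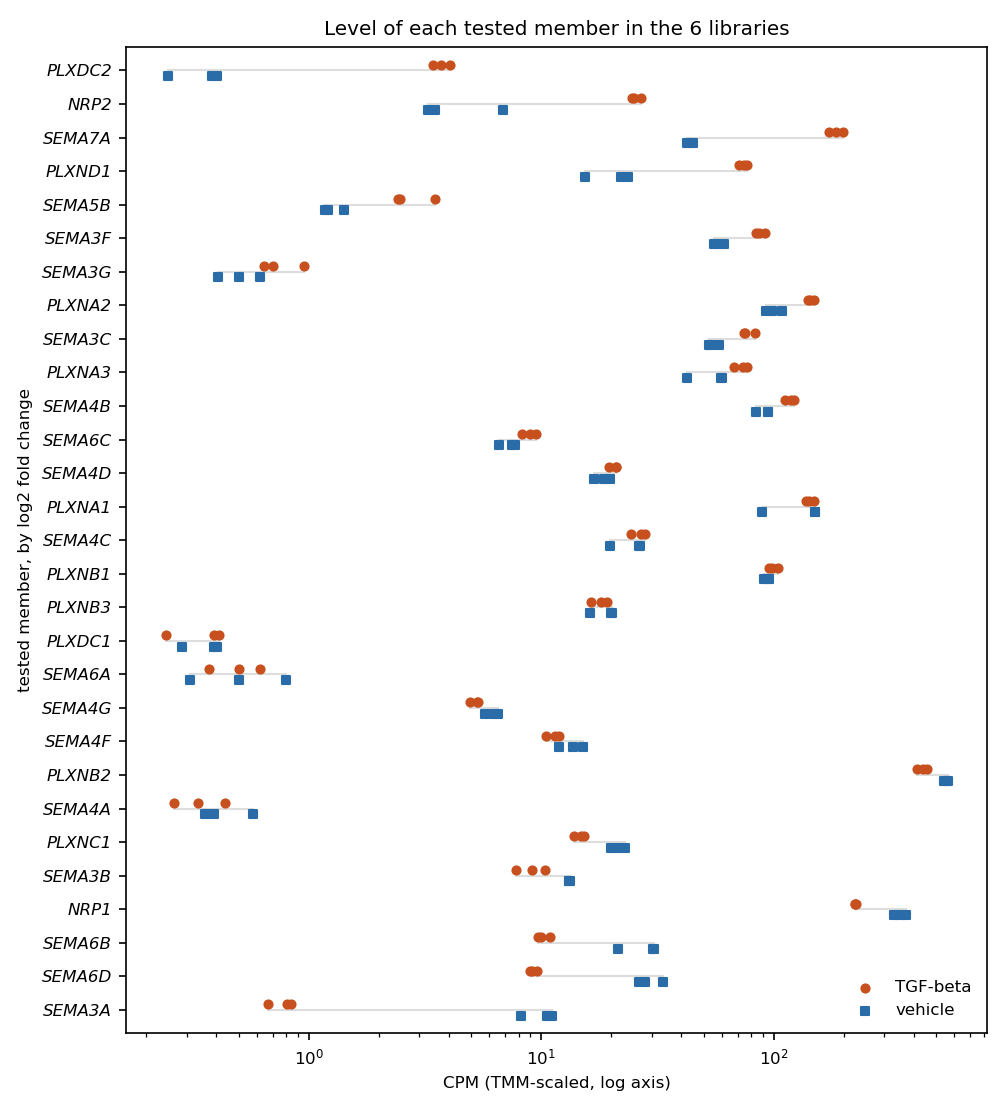
Level of each of the 29 tested members in TMM-scaled CPM on a log axis, with 1 circle per TGF-beta library and 1 square per vehicle library, ordered by log2 fold change. PLXDC2, NRP2, SEMA7A and PLXND1 at the top and SEMA3A, SEMA6D and SEMA6B at the bottom show wide gaps between the groups, and the groups do not overlap for 20 members.

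The groups did not overlap for 20 of the 29 tested members, against 52.3% of all tested genes. The plot of levels by library shows that these gaps ran in both directions and at every level of expression, from below 1 CPM for SEMA3A under TGF-beta to 456 CPM for PLXNB2 in TGF-beta library 3.

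Class 3 semaphorins, the secreted ligands, moved apart from each other. Of the 7 members, 5 were tested, 2 were called higher, 2 lower and 1 was not called, where 40.1% of all tested genes were called. SEMA3A (ENSG00000075213, hg38 chr7:83955777-84492724), a repulsive guidance cue that binds NRP1, had 0.812, 0.838 and 0.671 CPM in TGF-beta libraries 1, 2 and 3, against 8.23, 11.2 and 10.6 CPM in vehicle libraries 1, 2 and 3. All 3 TGF-beta values lay below 1 CPM and far below the vehicle values, resting on 93 reads in all under TGF-beta and 1523 under vehicle. The log2 fold change of -3.69 (SE 0.16; edgeR quasi-likelihood test, Benjamini-Hochberg adjusted p = 4.75e-08) was the largest fall in the family. SEMA3B (ENSG00000012171, chr3:50267558-50277546), known as a candidate tumour suppressor, had 7.81, 9.13 and 10.4 CPM in the TGF-beta libraries, against 13.4, 13.2 and 13.2 CPM in the vehicle libraries. It fell by 0.54 on the log2 scale (SE 0.10; edgeR, Benjamini-Hochberg adjusted p = 0.00139), and its highest TGF-beta library stayed below its lowest vehicle library.

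SEMA3C and SEMA3F rose. SEMA3C (ENSG00000075223, chr7:80742538-80922359), a ligand that acts through either neuropilin and through PLXND1, had 82.8, 75.1 and 74.6 CPM in the TGF-beta libraries, against 58.2, 52.6 and 53.4 CPM in the vehicle libraries. Every TGF-beta library was above every vehicle library, and the log2 fold change was 0.50 (SE 0.06; edgeR, Benjamini-Hochberg adjusted p = 6.93e-05). SEMA3F (ENSG00000001617, chr3:50155045-50189075), which prefers NRP2 as co-receptor, had 84.2, 86.5 and 91.5 CPM under TGF-beta and 60.9, 55.4 and 57.9 CPM under vehicle. These groups did not overlap either, with a log2 fold change of 0.59 (SE 0.05; edgeR, Benjamini-Hochberg adjusted p = 9.21e-06). SEMA3F shares 110 exon bases with the antisense gene SEMA3F-AS1, which averaged 13.5 CPM under TGF-beta and 12.8 CPM under vehicle and was not called. SEMA3F and SEMA3B lie 78.5 kb apart on chromosome 3, with other tested genes between them, and moved in opposite directions. SEMA3G had a log2 fold change of 0.58 (SE 0.25; edgeR, Benjamini-Hochberg adjusted p = 0.0851) at a mean below 1 CPM in both groups. SEMA3E and SEMA3D were barely read, with 1 read under TGF-beta and 8 under vehicle for SEMA3E and 1 in each group for SEMA3D.

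SEMA7A (ENSG00000138623, chr15:74409289-74434467), a ligand held at the membrane by a lipid anchor that binds PLXNC1 and integrins with the beta 1 chain, had 173, 185 and 199 CPM in the TGF-beta libraries. Its vehicle libraries held 42.4, 45.2 and 43.0 CPM. The lowest TGF-beta library was therefore well above the highest vehicle library, and SEMA7A had the smallest adjusted p of the family (log2 fold change 2.09, SE 0.06; edgeR, Benjamini-Hochberg adjusted p = 2.2e-09). Its plexin, PLXNC1 (ENSG00000136040, chr12:94148723-94307675), moved the other way, with 13.9, 14.9 and 15.3 CPM under TGF-beta and 23.0, 21.1 and 20.001 CPM under vehicle. The groups did not overlap, and PLXNC1 fell by 0.54 on the log2 scale (SE 0.07; edgeR, Benjamini-Hochberg adjusted p = 0.000187). PLXNC1 shares 177 exon bases with CEP83 on the opposite strand, which averaged 14.4 CPM under TGF-beta and 14.9 CPM under vehicle. The integrin beta 1 chain, ITGB1, averaged 1608 ± 26.3 CPM under TGF-beta and 1069 ± 18.2 CPM under vehicle (SD, n = 3 each), a log2 fold change of 0.59 that was called higher.

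**Figure D2:**
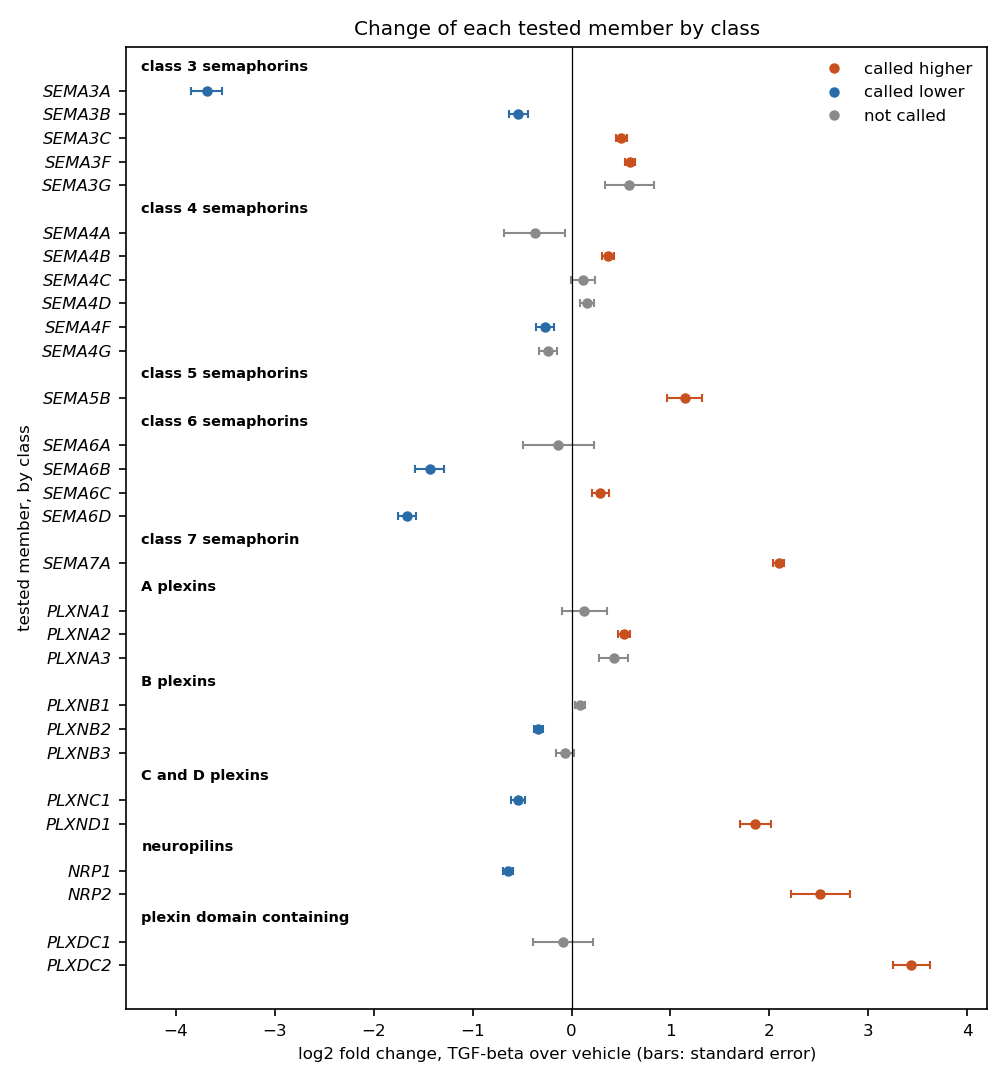
Log2 fold change of TGF-beta over vehicle for each of the 29 tested members, grouped by class, with bars for the standard error and colour for the call. Classes 3, 4 and 6, the C and D plexins and the neuropilins each hold members called in opposite directions, with SEMA3A at -3.69 and PLXDC2 at 3.44 as the extremes.

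Of the class 6 semaphorins, membrane-spanning ligands that act on A plexins, 2 of 4 fell and 1 rose. The share called over all tested genes was 40.1%. SEMA6D (ENSG00000137872, chr15:47184101-47774223), a ligand of PLXNA1, had 8.96, 9.16 and 9.60 CPM in the TGF-beta libraries, against 33.6, 28.1 and 26.4 CPM in the vehicle libraries. The TGF-beta values were tight and all below 10 CPM, and the log2 fold change was -1.67 (SE 0.09; edgeR, Benjamini-Hochberg adjusted p = 2.96e-07). SEMA6B (ENSG00000167680, chr19:4542593-4559808), a ligand of the A plexins, had 9.96, 9.66 and 10.9 CPM under TGF-beta and 21.4, 30.2 and 30.6 CPM under vehicle. Vehicle library 1 was the lowest vehicle value but still above every TGF-beta library, and the log2 fold change was -1.43 (SE 0.15; edgeR, Benjamini-Hochberg adjusted p = 0.000245), or -1.58 without that library. SEMA6C averaged 8.92 ± 0.613 CPM under TGF-beta and 7.28 ± 0.594 CPM under vehicle (SD, n = 3 each), a log2 fold change of 0.29 (edgeR, Benjamini-Hochberg adjusted p = 0.0254). That call was lost when vehicle library 2 (adjusted p = 0.0528), TGF-beta library 2 (0.116) or TGF-beta library 3 (0.0752) was left out. SEMA6A stayed below 1 CPM in all 6 libraries and was not called.

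Class 4 semaphorins are membrane-spanning ligands known from immune cells and epithelia. Of 6 tested, 1 was called higher, 1 lower and 4 were not called, where 40.1% of all tested genes were called. SEMA4B (ENSG00000185033, chr15:90160604-90229679), the most abundant of them per unit of length, had 112, 118 and 123 CPM under TGF-beta and 83.9, 94.4 and 95.0 CPM under vehicle. The groups were apart by a modest step, a log2 fold change of 0.37 (SE 0.06; edgeR, Benjamini-Hochberg adjusted p = 0.000597). SEMA4F had 11.98, 11.4 and 10.5 CPM under TGF-beta and 11.90, 15.1 and 13.7 CPM under vehicle. The groups overlapped, since TGF-beta library 1 lay just above vehicle library 1. Its log2 fold change of -0.27 (SE 0.09; edgeR, Benjamini-Hochberg adjusted p = 0.0446) lost its call when any library other than vehicle library 1 was left out, with adjusted p between 0.0674 and 0.192. SEMA4D, the PLXNB1 ligand known from T cells, had a log2 fold change of 0.16 (SE 0.07), SEMA4C, a PLXNB2 ligand, one of 0.12 (SE 0.12), SEMA4G one of -0.24 (SE 0.09) and SEMA4A one of -0.37 (SE 0.31), none of them called. SEMA4G, whose groups did not overlap, was called lower with library totals (adjusted p = 0.00747) and with a filter of 1 CPM in 3 libraries (0.0485). SEMA4G shares 1170 exon bases with MRPL43 on the opposite strand, at 48.1 CPM under TGF-beta and 54.0 CPM under vehicle.

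Class 5 semaphorins carry thrombospondin repeats. SEMA5B (ENSG00000082684, chr3:122909193-123028605) had 2.43, 3.49 and 2.48 CPM in the TGF-beta libraries, against 1.22, 1.17 and 1.43 CPM in the vehicle libraries. Its TGF-beta values were all above its vehicle values, on 341 reads under TGF-beta and 191 under vehicle, and the log2 fold change was 1.14 (SE 0.18; edgeR, Benjamini-Hochberg adjusted p = 0.000543). SEMA5A had 1 read in each group and was not tested.

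Neuropilins moved in opposite directions. NRP1 (ENSG00000099250, chr10:33177492-33336262), the co-receptor for SEMA3A and for forms of VEGFA, had 225, 223 and 225 CPM in the TGF-beta libraries, against 329, 371 and 351 CPM in the vehicle libraries. All TGF-beta values lay below all vehicle values, and NRP1 fell by 0.64 on the log2 scale (SE 0.05; edgeR, Benjamini-Hochberg adjusted p = 3.18e-06). NRP2 (ENSG00000118257, chr2:205681990-205798133), the preferred co-receptor of SEMA3F and also a receptor for VEGFC, had 24.7, 24.99 and 26.9 CPM under TGF-beta and 6.84, 3.51 and 3.28 CPM under vehicle. Vehicle library 1 was 2.02 times the mean of the other vehicle libraries, yet every TGF-beta library was above it. NRP2 rose by a log2 fold change of 2.51 (SE 0.30; edgeR, Benjamini-Hochberg adjusted p = 0.00232), and by 2.91 without vehicle library 1. Per unit of length, the ratio of NRP1 to NRP2 in the deposited RPKM was 10.99, 10.8 and 10.1 in the TGF-beta libraries and 58.0, 128 and 129 in the vehicle libraries, so NRP1 stayed the more abundant neuropilin in all 6 libraries. Both genes overlap an antisense gene that moved the same way: AC007362.3 shares 147 exon bases with NRP2 and averaged 0.783 CPM under TGF-beta and 0.129 CPM under vehicle, and RP11-342D11.2 shares 561 exon bases with NRP1 and averaged 19.97 CPM under TGF-beta and 30.6 CPM under vehicle. The sources used here do not give the strand setting of the counting, so reads over the shared bases cannot be assigned to one gene of a pair. The shared 147 bases of NRP2 stand against a gene length of 13896 bases, and the shared 561 bases of NRP1 against 11522 bases. The part of antisense reads in these changes was not tested.

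Among the plexins, 8 of 9 were tested, 2 were called higher and 2 lower, where 40.1% of all tested genes were called. PLXND1 (ENSG00000004399, chr3:129555175-129606818), the receptor of SEMA3E and a partner in SEMA3C signalling that is best known in blood vessels, had 71.1, 74.5 and 76.8 CPM in the TGF-beta libraries. The vehicle libraries held 15.5, 23.6 and 22.03 CPM. Every TGF-beta library was above every vehicle library, and the log2 fold change was 1.86 (SE 0.16; edgeR, Benjamini-Hochberg adjusted p = 0.000311), or 1.70 without vehicle library 1, the lowest of the vehicle libraries. The A plexins, signalling partners of the neuropilins, had 1 of 3 tested members called higher. PLXNA2 (ENSG00000076356, chr1:208022242-208244320) had 143, 141 and 149 CPM under TGF-beta and 92.5, 108 and 98.9 CPM under vehicle. The groups did not overlap, and the log2 fold change was 0.53 (SE 0.06; edgeR, Benjamini-Hochberg adjusted p = 5.01e-05).

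PLXNA1 (ENSG00000114554, chr3:126988594-127037392), a receptor for SEMA3A with NRP1 and for SEMA6D, had 137, 142 and 149 CPM in the TGF-beta libraries and 89.5, 151 and 150.5 CPM in the vehicle libraries. Only vehicle library 1 lay below the TGF-beta values, and the log2 fold change of 0.13 (SE 0.23; edgeR, Benjamini-Hochberg adjusted p = 0.702) became -0.08 without it. PLXNA3 had 67.4, 73.9 and 76.5 CPM under TGF-beta and 42.6, 60.3 and 59.2 CPM under vehicle. Its log2 fold change of 0.43 (SE 0.14; edgeR, Benjamini-Hochberg adjusted p = 0.0629) was not called although the groups did not overlap, but it was called with DESeq2 (adjusted p = 0.000643) and, at 0.28, without vehicle library 1. PLXNA4 had 41 reads under TGF-beta and 23 under vehicle and was not tested.

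B plexins respond to class 4 semaphorins and are known from epithelial and neural development. PLXNB2 (ENSG00000196576, chr22:50274979-50307627), the most abundant member in both groups, had 415, 441 and 456 CPM under TGF-beta and 539, 562 and 557 CPM under vehicle. Every TGF-beta library was below every vehicle library, and PLXNB2 fell by 0.34 on the log2 scale (SE 0.05; edgeR, Benjamini-Hochberg adjusted p = 0.000226). PLXNB2 overlaps AL022328.1, which averaged 14.9 CPM under TGF-beta and 18.6 CPM under vehicle and was also called lower. Their shared exon bases were not available, and the part of this overlap in the change was not tested. PLXNB1 averaged 99.3 ± 4.78 CPM under TGF-beta and 93.5 ± 2.11 CPM under vehicle (SD, n = 3 each), and PLXNB3 averaged 17.9 ± 1.43 CPM under TGF-beta and 18.8 ± 2.19 CPM under vehicle. Neither was called, but PLXNB3 was called lower at -0.15 (edgeR, Benjamini-Hochberg adjusted p = 0.0441) when vehicle library 1 was left out. PLXNB3 shares 1432 exon bases with SRPK3 on the same strand, which averaged 6.46 CPM under TGF-beta and 6.48 CPM under vehicle.

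PLXDC2 (ENSG00000120594, chr10:19816239-20289856) and PLXDC1 share a short domain with plexins but are not semaphorin receptors, and both are known from tumour blood vessels. PLXDC2 had 4.06, 3.42 and 3.72 CPM in the TGF-beta libraries, against 0.405, 0.249 and 0.386 CPM in the vehicle libraries, on 444 reads under TGF-beta and 51 under vehicle. The vehicle libraries were all below 1 CPM and the TGF-beta libraries all well above them, which gave the largest rise of the family, a log2 fold change of 3.44 (SE 0.19; edgeR, Benjamini-Hochberg adjusted p = 2.74e-07). PLXDC1 had 41 reads under TGF-beta and 55 under vehicle and was not called.

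SMAD factors are known to bind short boxes in DNA, and the promoter windows of the members were searched for 2 such boxes, an AP-1 site and a SNAIL type E-box. Promoter windows of 250 bases before the RefSeq start (GRCh38.p14) matched 28 of the 33 members. SEMA3A, SEMA6A, SEMA6B, NRP1 and PLXDC1 were not among them. The RefSeq start used is not always the outer end of the gene in the count table. Windows of several members, among them SEMA7A, NRP2, SEMA4B and PLXNC1, lie inside the gene span. Of the 8 members called with a change of at least 2-fold, 4 had a window with at most 1 base in a GENCODE v29 exon. SEMA3A and SEMA6B, also among the 8, had no window. The 4 windows are shown 5′ to 3′ on the strand of the gene. They are SEMA7A at chr15:74433959-74434208 (minus strand), NRP2 at chr2:205682251-205682500 (plus strand), SEMA5B at chr3:123028606-123028855 (minus strand) and SEMA6D at chr15:47183839-47184088 (plus strand). The SEMA5B and SEMA6D windows lie outside the gene span. Capitals mark the SMAD box CAGAC or its reverse complement GTCTG, the SMAD GC box GGCGCC, the AP-1 site TGANTCA and the SNAIL type E-box CACCTG or CAGGTG.
SEMA7A: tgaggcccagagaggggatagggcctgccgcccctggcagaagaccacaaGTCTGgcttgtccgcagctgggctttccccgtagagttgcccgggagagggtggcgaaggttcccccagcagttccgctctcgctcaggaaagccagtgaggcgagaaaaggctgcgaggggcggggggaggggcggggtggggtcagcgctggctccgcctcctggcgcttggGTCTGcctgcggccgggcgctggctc
NRP2: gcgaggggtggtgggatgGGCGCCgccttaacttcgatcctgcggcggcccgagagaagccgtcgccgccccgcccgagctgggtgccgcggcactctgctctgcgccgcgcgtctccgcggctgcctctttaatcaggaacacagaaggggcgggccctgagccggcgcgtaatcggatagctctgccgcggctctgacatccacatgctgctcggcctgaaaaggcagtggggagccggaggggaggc
SEMA5B: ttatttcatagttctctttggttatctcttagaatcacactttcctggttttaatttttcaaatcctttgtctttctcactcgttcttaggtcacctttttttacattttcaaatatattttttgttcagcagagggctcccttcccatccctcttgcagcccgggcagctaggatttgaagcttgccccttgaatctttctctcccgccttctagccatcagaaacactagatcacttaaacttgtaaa
SEMA6D: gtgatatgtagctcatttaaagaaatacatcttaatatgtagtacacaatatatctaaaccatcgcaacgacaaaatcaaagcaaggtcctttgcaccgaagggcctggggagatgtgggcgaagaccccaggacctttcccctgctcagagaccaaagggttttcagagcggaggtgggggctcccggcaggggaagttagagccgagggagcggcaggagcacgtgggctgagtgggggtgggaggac
The SEMA7A window held 2 SMAD boxes and the NRP2 window 1 SMAD GC box, while the SEMA5B and SEMA6D windows held no match to any of the 4. The windows also differed in base composition, with 70.0% G and C for SEMA7A and for NRP2, 39.2% for SEMA5B and 53.6% for SEMA6D. PLXND1 had 1 SMAD GC box in its window and PLXDC2 no match, but their windows held 142 and 250 bases of annotated exon.

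Over all 28 members with a window, a SMAD box stood in 8, against 37.8% of 27305 RefSeq promoter windows of the same length searched on both strands. It stood in 5 of 10 members called higher, 1 of 5 called lower, 0 of 9 not called and 2 of 4 not tested. The SMAD GC box stood in 6 of 28 and in 16.1% of all windows. By call it stood in 4 of 10 higher, 0 of 5 lower, 1 of 9 not called and 1 of 4 not tested. The SNAIL type E-box stood in 5 of 28 and in 17.5% of all windows. By call it stood in 1 of 10 higher, 1 of 5 lower, 3 of 9 not called and 0 of 4 not tested. The AP-1 site stood in 1 of 28, PLXNC1, and in 6.60%. SEMA3A, SEMA6B and NRP1, all called lower, had no window. The windows of all promoters were not matched to those of the members for base composition. The PLXNC1 window starts at chr12:94262369, inside a gene span that starts at 94148723. No motif contains another, and a match describes the letters of the window and not a bound site. Where a window lies inside the gene span, its letters are not sequence before the whole gene.

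Levels of different genes were compared in the deposited RPKM, which is scaled to gene length. Under TGF-beta the order was led by PLXNB2 (24.9 RPKM), SEMA7A (17.8), NRP1 (8.05), SEMA3F (7.48) and SEMA4B (6.94), with no overlap between the libraries of one and of the next. Under vehicle PLXNB2 (33.4 RPKM) and NRP1 (13.3) led, followed by SEMA4B (5.70), SEMA3F (5.28), PLXNA1 (5.23), SEMA7A (4.43) and PLXNB1 (4.22), in which neighbours overlapped. SEMA7A thus stood at rank 2 of 33 under TGF-beta and at rank 6 under vehicle, PLXND1 at rank 11 under TGF-beta and 18 under vehicle, and NRP2 at rank 15 under TGF-beta and 23 under vehicle, whereas SEMA3A stood at rank 26 under TGF-beta and 22 under vehicle.

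**Figure D3:**
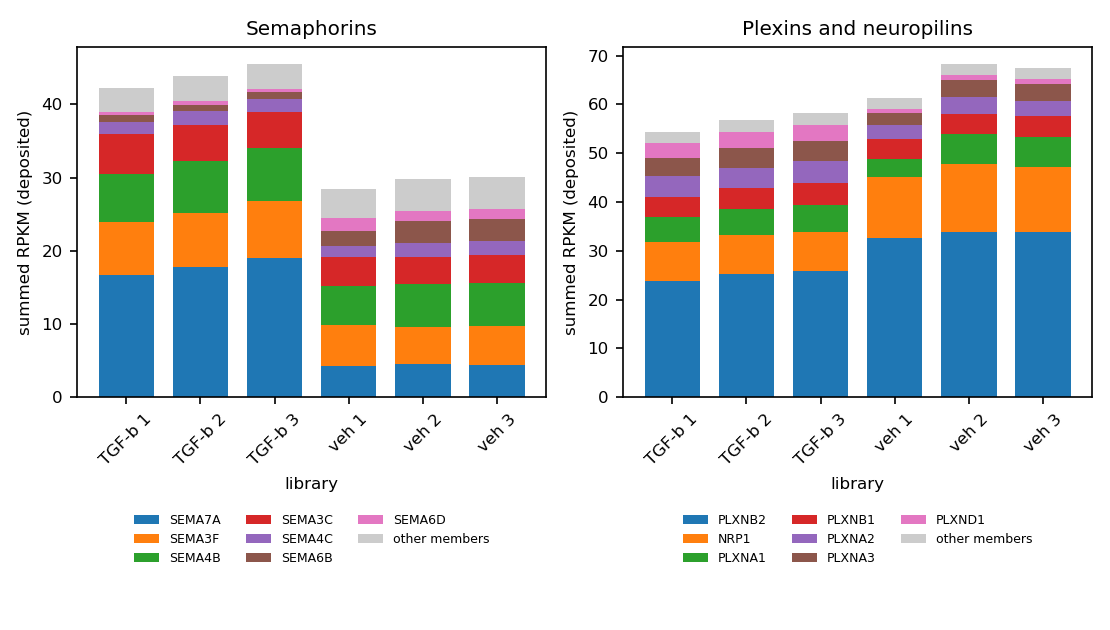
Summed deposited RPKM of the semaphorins (left panel) and of the plexins and neuropilins (right panel) in each TGF-beta and vehicle library, stacked by gene. The SEMA7A block is taller in all 3 TGF-beta libraries (16.7 to 19.0 RPKM) than in the vehicle libraries (4.32 to 4.58), while the PLXNB2 and NRP1 blocks are shorter.

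Summed over the 20 semaphorins, the level was 42.2, 43.9 and 45.5 RPKM in the TGF-beta libraries and 28.5, 29.8 and 30.1 RPKM in the vehicle libraries. SEMA7A made up 39.5, 40.5 and 41.7% of that sum under TGF-beta and 15.2, 15.3 and 14.6% under vehicle. The groups were apart in both measures, and the mean of SEMA7A differed by 13.4 RPKM where the mean of the sum differed by 14.4 RPKM. The class 6 sum averaged 2.05 ± 0.0768 RPKM under TGF-beta and 4.80 ± 0.368 RPKM under vehicle, and the class 3 sum 13.3 ± 0.184 RPKM under TGF-beta and 10.6 ± 0.423 RPKM under vehicle (SD, n = 3 each). On the receptor side, the plexins together summed to 45.5, 48.0 and 49.4 RPKM in the TGF-beta libraries and 48.5, 54.2 and 53.9 RPKM in the vehicle libraries, where the groups overlapped. The B plexins summed to 30.2 ± 1.31 RPKM under TGF-beta and 38.8 ± 0.910 RPKM under vehicle. The A plexins summed to 13.7 ± 0.520 RPKM under TGF-beta and 11.5 ± 2.19 RPKM under vehicle. The C and D plexins summed to 3.76 ± 0.140 RPKM under TGF-beta and 1.87 ± 0.135 RPKM under vehicle. The neuropilins summed to 8.81 ± 0.0308 RPKM under TGF-beta and 13.5 ± 0.698 RPKM under vehicle. PLXND1 made up 6.60 ± 0.0400% of plexin RPKM under TGF-beta and 1.75 ± 0.269% under vehicle, whereas PLXNB2 made up 52.3 ± 0.229% under TGF-beta and 64.1 ± 2.73% under vehicle. The semaphorin sum and the share of PLXND1 were thus higher under TGF-beta, and the neuropilin sum and the share of PLXNB2 lower; no test was run on sums.

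Set side by side, known ligand and receptor pairs differed in how they moved. SEMA3A and its co-receptor NRP1 both fell (log2 fold changes -3.69 and -0.64), and SEMA3F and NRP2 both rose (0.59 and 2.51). SEMA3C rose (0.50) as did PLXND1 (1.86) and NRP2, whereas NRP1, through which SEMA3C also acts, fell. SEMA7A rose while PLXNC1 fell (2.09 and -0.54), and SEMA6D fell while PLXNA1 was not called (-1.67 and 0.13). SEMA6B fell while PLXNA2 rose (-1.43 and 0.53). SEMA4C was not called while PLXNB2 fell (0.12 and -0.34), and neither SEMA4D nor PLXNB1 was called (0.16 and 0.09). These pairs are examples and do not cover all known pairs.

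Genes that work with semaphorins outside the family were also measured. Of 16 receptor partners, 13 were tested, 6 were called higher and 2 lower, with a median log2 fold change of 0.25. Over all tested genes, the share called was 40.1%, with 19.7% higher and 20.4% lower, and the median was -0.01, against which the counts of this and the other lists stand. CSPG4, a cell-surface proteoglycan, had 46.7, 48.4 and 50.4 CPM under TGF-beta and 24.5, 20.6 and 20.1 CPM under vehicle, a log2 fold change of 1.16 (edgeR, Benjamini-Hochberg adjusted p = 1.04e-06). KDR, the VEGF receptor that pairs with NRP1, had 10.4, 9.75 and 8.77 CPM under TGF-beta and 22.2, 18.3 and 17.1 CPM under vehicle, a log2 fold change of -0.99 (edgeR, Benjamini-Hochberg adjusted p = 5.06e-05). Both genes had groups that did not overlap.

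Plexin effectors, the cytosolic GTPases, exchange factors and cytoskeletal proteins below plexins, numbered 38, of which 37 were tested, 23 were called higher and 7 lower, with a median log2 fold change of 0.23. All tested genes were called higher in 19.7% and lower in 20.4%, and with library totals in place of TMM 16 effectors were called higher and 8 lower. RHOD, a small GTPase that binds plexins, averaged 83.9 ± 8.42 CPM under TGF-beta and 29.7 ± 2.16 CPM under vehicle (SD, n = 3 each), a log2 fold change of 1.498. TIAM1, an exchange factor for Rac, averaged 10.3 ± 0.263 CPM under TGF-beta and 15.5 ± 3.14 CPM under vehicle, a log2 fold change of -0.59 that was the largest fall among called effectors and lost its call in 2 of 14 alternatives (highest adjusted p = 0.0557, edgeR or another tool). All 8 processing proteases were tested, and 5 were called higher and 1 lower, with a median of 0.35. FURIN, which cuts class 3 semaphorins and other proproteins, had 301, 315 and 336 CPM under TGF-beta and 57.7, 65.9 and 67.0 CPM under vehicle. Its groups were far apart, with a log2 fold change of 2.32 (SE 0.07; edgeR, Benjamini-Hochberg adjusted p = 2.92e-09). ADAMTS1, an extracellular protease, averaged 1.38 ± 0.108 CPM under TGF-beta and 3.07 ± 0.471 CPM under vehicle (SD, n = 3 each), a log2 fold change of -1.16 that was called lower.

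**Figure D4:**
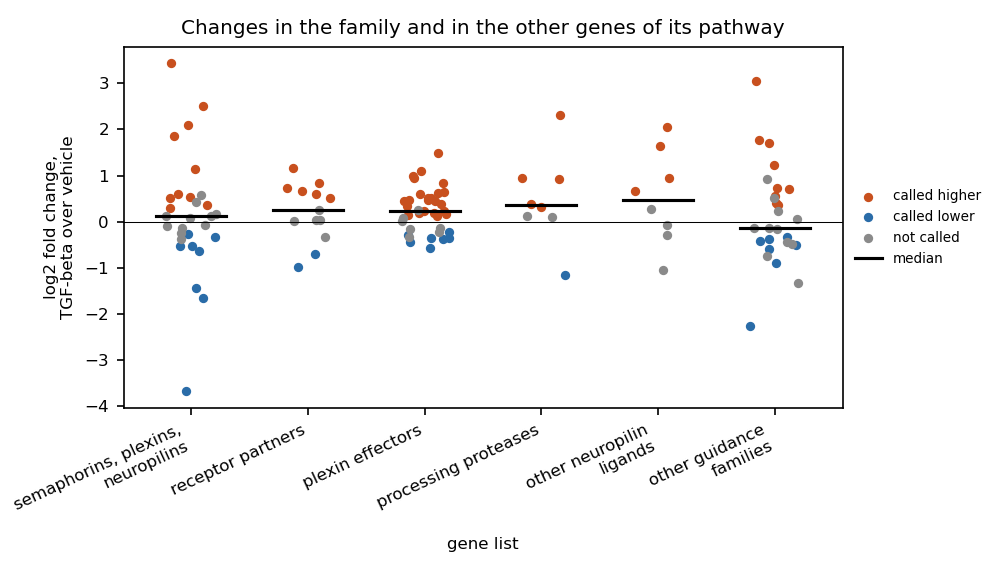
Log2 fold change of TGF-beta over vehicle for the tested members of the family and of 5 other gene lists, with 1 point per gene, colour for the call and a line at the median. The family spans -3.69 to 3.44, and the list medians lie between -0.13 and 0.46.

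Of 10 other growth factors that bind neuropilins, 8 were tested and 4 were called higher, where 19.7% of all tested genes were; no member was called lower by the edgeR quasi-likelihood test after Benjamini-Hochberg adjustment, 1 was lower at an unadjusted p under 0.05, and DESeq2 called 1 lower. The median log2 fold change was 0.46. PDGFB averaged 168 ± 9.60 CPM under TGF-beta and 40.0 ± 5.91 CPM under vehicle (SD, n = 3 each), a log2 fold change of 2.06. VEGFA, the angiogenic factor, had 215, 228 and 217 CPM under TGF-beta and 46.1, 79.0 and 84.4 CPM under vehicle, a log2 fold change of 1.65 (edgeR, Benjamini-Hochberg adjusted p = 0.00767), or 1.43 without vehicle library 1. In both, every TGF-beta library was above every vehicle library, while NRP1 and KDR were lower and NRP2 was higher in the same libraries.

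Other guidance families held members called in both directions. Of 42 slits, robos, netrins, ephrins, Eph receptors and their relatives, 27 were tested, 9 were called higher and 7 lower (19.7% and 20.4% of all tested genes), with a median log2 fold change of -0.13. EFNA2, a membrane-anchored ephrin, averaged 1.18 ± 0.261 CPM under TGF-beta and 0.145 ± 0.0688 CPM under vehicle (SD, n = 3 each), and EPHB2, an ephrin receptor, 215 ± 7.37 CPM under TGF-beta and 65.7 ± 8.47 CPM under vehicle, with log2 fold changes of 3.05 and 1.71. UNC5B, a netrin receptor, had a log2 fold change of 1.76. SLIT1, a secreted repellent, averaged 0.151 ± 0.0699 CPM under TGF-beta and 0.733 ± 0.141 CPM under vehicle, a log2 fold change of -2.28. All 4 were called in the directions given.

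The nearest tested protein-coding genes outside the span of a member did not always have the sign of the member they flank. Non-coding neighbours were not searched. NRP2 lies between PARD3B (-1.44) and INO80D (-0.45), and SEMA3A between PCLO (-0.78) and KIAA1324L (-0.17). These are log2 fold changes of the nearest such gene on either side. ITGB1 is the nearest tested protein-coding gene on one side of NRP1, 171700 bases away, and was called higher where NRP1 was called lower.

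**Figure D5:**
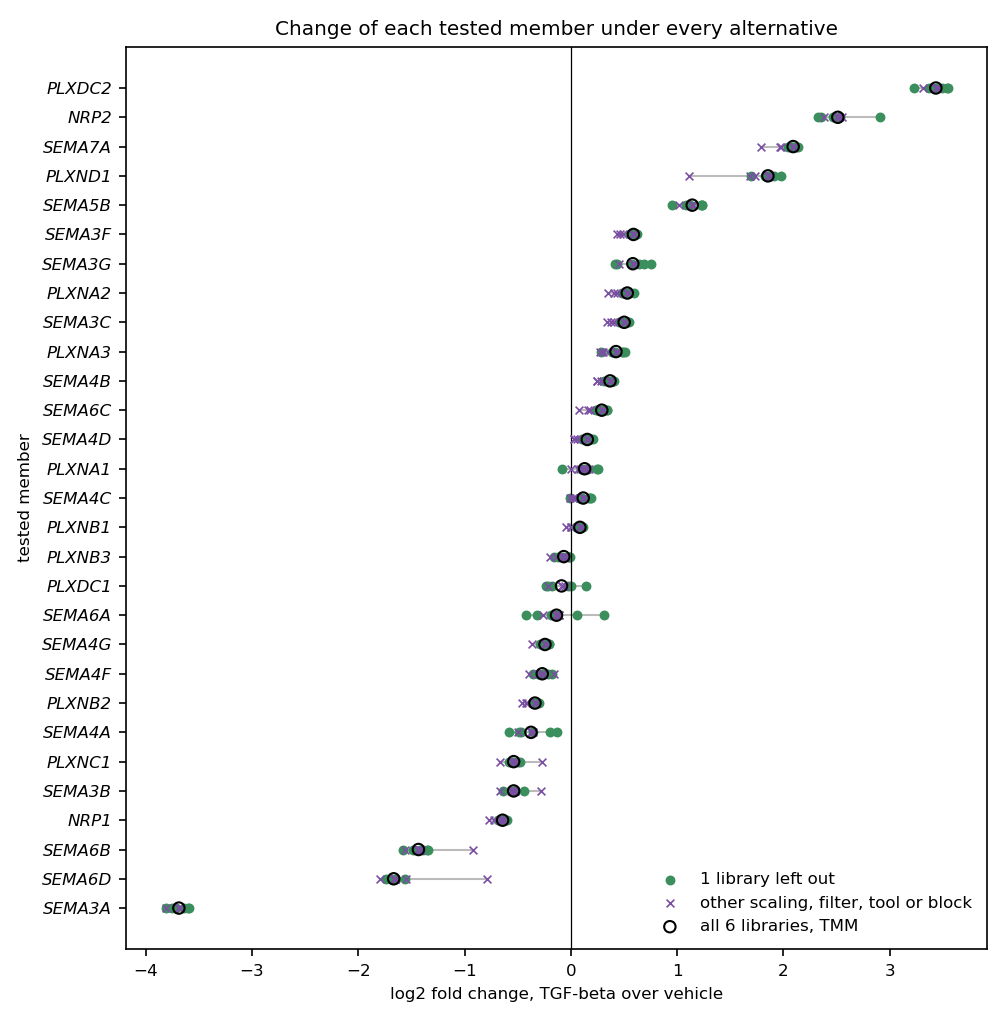
Log2 fold change of TGF-beta over vehicle for each tested member with all 6 libraries and TMM scaling (open circle), with 1 library left out (filled circles) and under another scaling, filter, tool or block (crosses). PLXDC2, NRP2, SEMA7A, PLXND1 and SEMA5B stay above 0 and SEMA3A, SEMA6D and SEMA6B below 0 in every alternative drawn.

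The plot of alternatives shows how far each value moved. Among the 18 called members, 16 kept their call in every alternative that could be run, and SEMA4F and SEMA6C did not. With 1 library left out, the log2 fold change ranged from 3.23 to 3.55 for PLXDC2, from 2.33 to 2.91 for NRP2, from 2.04 to 2.14 for SEMA7A, from 1.70 to 1.98 for PLXND1 and from -3.81 to -3.59 for SEMA3A.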

How the data were processed

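RNA sequencing of 6 H69 libraries, 3 given TGF-beta and 3 given vehicle per the labels, was analysed from 1 deposited table of 64253 genes. Per the submitters' processing notes, reads were handled with bcl2fastq, STAR 2.6.1 and Subread featureCounts on hg38. The count columns are whole-number reads per gene, per the file headers and the deposited values. The RPKM columns are, per the file headers, RPKM made by the authors; the counts in the table are 41.9 to 43.3% of the library total they were scaled to. The strand setting and annotation release are not given in the sources used here, so reads of overlapping genes may be split between them.

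The counts went into edgeR 4.0.16 (R 4.3.3), with filterByExpr at a minimum count of 10, TMM scaling and a robust quasi-likelihood test between the conditions, with no replicate block and Benjamini-Hochberg adjustment over the 20992 genes tested. Calls were made at an adjusted p under 0.05. The standard error (SE) is the absolute log2 fold change over the root of F. The common biological coefficient of variation was 7.88%. CPM values are TMM-scaled, and a floor of 3 reads corresponds to 0.0534 to 0.0840 CPM, which covers counting error only. The log2 scale of the deposited RPKM was used in limma 3.58.1 alone, where the mean RPKM was at least 0.5. Other alternatives were library totals alone, RLE factors, a filter of 1 CPM in 3 libraries, no filter, DESeq2 1.42.0, a replicate block and each library left out. The steps were tested on simulated data. No 2 libraries agreed within sampling noise.

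Members and lists were chosen with earlier results of these data known. Values are given for members called with a log2 fold change of at least 1 or a mean of at least 10 CPM and for a fixed set of 9; the other lists are described by their largest called rise and fall and called changes of at least 1.5. ITGB1, the neighbouring genes and the antisense partners were named after their values were seen, where they bear on a member. Exon overlaps were taken from GENCODE v29 and promoter windows from RefSeq (GRCh38.p14). Some results are not reported here.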

Additional observations from a re-analysis of the deposited data

How the results depend on the processing

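Of 384 values of single genes under the alternatives, 355 kept their direction and their side of the threshold, 14 lost a call, 6 gained one and 9 changed sign; none of the 9 was of a called gene. With library totals alone, SEMA4C was at -0.0089 and PLXNB1 at -0.041, and PLXNB1 was at -0.0010 with limma on log2(RPKM + 1) and at -0.0014 on log2(RPKM + 0.1). With 1 library left out, the log2 fold change of SEMA4C ran from -0.0075 (without vehicle library 1) to 0.19, of SEMA6A from -0.42 to 0.31 (0.31 without vehicle library 2 and 0.05 without TGF-beta library 2), of PLXNA1 from -0.079 (without vehicle library 1) to 0.25 and of PLXDC1 from -0.23 to 0.14 (without TGF-beta library 2). The members called higher numbered 6 with limma at either pseudocount, where fewer members were tested, and 9 to 11 otherwise. Members called lower numbered 7 to 9. With 1 library left out, members called higher ranged from 9 to 11 and lower from 7 to 9.

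All genes called higher numbered 2698 with library totals, 2406 with limma at a pseudocount of 1 and 2402 at 0.1, against 4145, and all genes called lower 7282 with library totals, against 4278. Of the proteases, 0 were called lower with limma at either pseudocount. Other neuropilin ligands called lower numbered 2 with library totals, 1 with no filter, 1 with the 1 CPM filter, 1 with the replicate block, 1 with DESeq2, and 2 with limma at either pseudocount, and 0 to 2 with 1 library left out, with 2 only without vehicle library 1. Other guidance genes called higher numbered 5 with limma at either pseudocount, and those called lower 11 with library totals and 5 to 12 with 1 library left out, with 12 without vehicle library 1. The cause of these shifts was not tested.

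Limma on log2(RPKM + 1), which understates changes of low genes, gave -0.79 for SEMA6D, -0.92 for SEMA6B, 1.12 for PLXND1, -0.28 for SEMA3B, -0.27 for PLXNC1 and 0.35 for PLXNA2, all still called. SEMA4F also lost its call with RLE factors (adjusted p = 0.0506) and DESeq2 (0.0639), and SEMA6C with library totals (0.152) and limma (0.162 and 0.164). With the replicate number as a block, 11 members were called higher and 7 lower: PLXNA3 was gained (adjusted p = 0.00601) and SEMA4F lost (0.0618). The numbers were not taken as pairs, since deviations of same-numbered libraries correlated at 0.0652, 0.0623 and 0.0129; TGF-beta library 3 correlated best with vehicle library 2 (0.0136). SEMA3G, SEMA4A, SEMA6A and PLXDC1, below 1 CPM in every library, rest on few reads and were not called.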
